A study of Mus musculus with 16 samples.

Results

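The genes described here encode the enzymes that turn pyruvate into acetyl-CoA and run the tricarboxylic acid (TCA) cycle, with the kinases, phosphatases, shuttle and malic enzymes around them. The list holds 32 genes, and each was represented by its brightest probe over all 16 arrays. Of the 32, 29 were found under their listed name, Me1 and Pdp1 were found through an older name and an accession, and Pdp2 matched no probe. All 31 measured genes were well above background on 16 of 16 arrays, and they stand among 15670 genes tested.

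One-colour microarrays measured messenger RNA of the left ventricle in mice backcrossed for 7 generations to a C57BL/6 N background. Transgenic mice, called NOS3-TG, carried alpha-MHC-NOS3: nitric oxide synthase 3 driven by the alpha-myosin heavy chain promoter of cardiomyocytes. Their wild-type littermates are called WT. For both genotypes there were control-intact mice (baseline) and mice with 10 weeks of transverse aortic constriction (TAC), in which a narrowed aorta makes the ventricle pump against pressure. Total RNA came from a ring of tissue cut through the middle of the ventricle. Each of the 4 groups held 4 biological repeats, 2 males and 2 females, matched for age and weight; the ages are not given in the sources used here, and the labels name no sham-operated mice. The Nos3 signal was 6.58 higher on the log2 scale in NOS3-TG than in WT at baseline and 5.69 higher after TAC, with no overlap between genotypes.

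Pyruvate enters mitochondria and is oxidised to acetyl-CoA by the pyruvate dehydrogenase complex, which kinases switch off and phosphatases switch on. Citrate synthase joins acetyl-CoA to oxaloacetate, and the cycle then releases carbon dioxide and passes electrons to NADH and FADH2 for the respiratory chain. The heart burns mostly fatty acids, with glucose and lactate entering through pyruvate, and both routes meet in this cycle.

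A level below is the log2 processed signal of a gene's probe minus the 75th percentile of the log2 signals on the same array. Levels are compared between arrays for 1 gene, and between genes only to sort probes by brightness into deciles. A difference is the fitted difference of 2 group means on that log2 scale with its standard error (SE), from limma over all arrays with sex as a term, and a gene is called changed at a Benjamini-Hochberg adjusted p under 0.05 over the 15670 genes. The 75th percentile of the signal lay between 1053 and 1491 on all arrays, and the share of probes above background had a median of 52.5%, with extremes of 44.8% (NOS3-TG baseline replicate 2), 46.2% (NOS3-TG TAC replicate 3) and 68.1% (NOS3-TG TAC replicate 4). The number of arrays limits the precision, with a median SE of 0.13 for a difference between groups.

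In WT mice, 18 of the 31 genes fell after TAC, 1 rose and 12 were not called. The median difference was -0.40, against -0.06 over all genes, and 29 of 31 differences were below 0. Over all genes tested, 17.6% were called lower and 10.9% higher in this comparison. On 20 of the 31 genes every WT TAC array lay below every WT baseline array, and on 1 gene every TAC array lay above, against 17.3% and 10.2% of all genes. The falls took in citrate synthase, all 3 subunits of the NAD-dependent isocitrate dehydrogenase, all 3 subunits of succinyl-CoA synthetase and fumarase. In NOS3-TG mice 2 genes fell (Idh1 and Idh3g), 1 rose (Me2) and 28 were not called, where 5.36% of all genes were called lower and 6.48% higher. The median difference in NOS3-TG was -0.20 against -0.0010 over all genes. No gene of the 31 had NOS3-TG TAC arrays all below or all above the baseline arrays, against 7.45% and 9.18% of all genes.

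**Figure D1:**
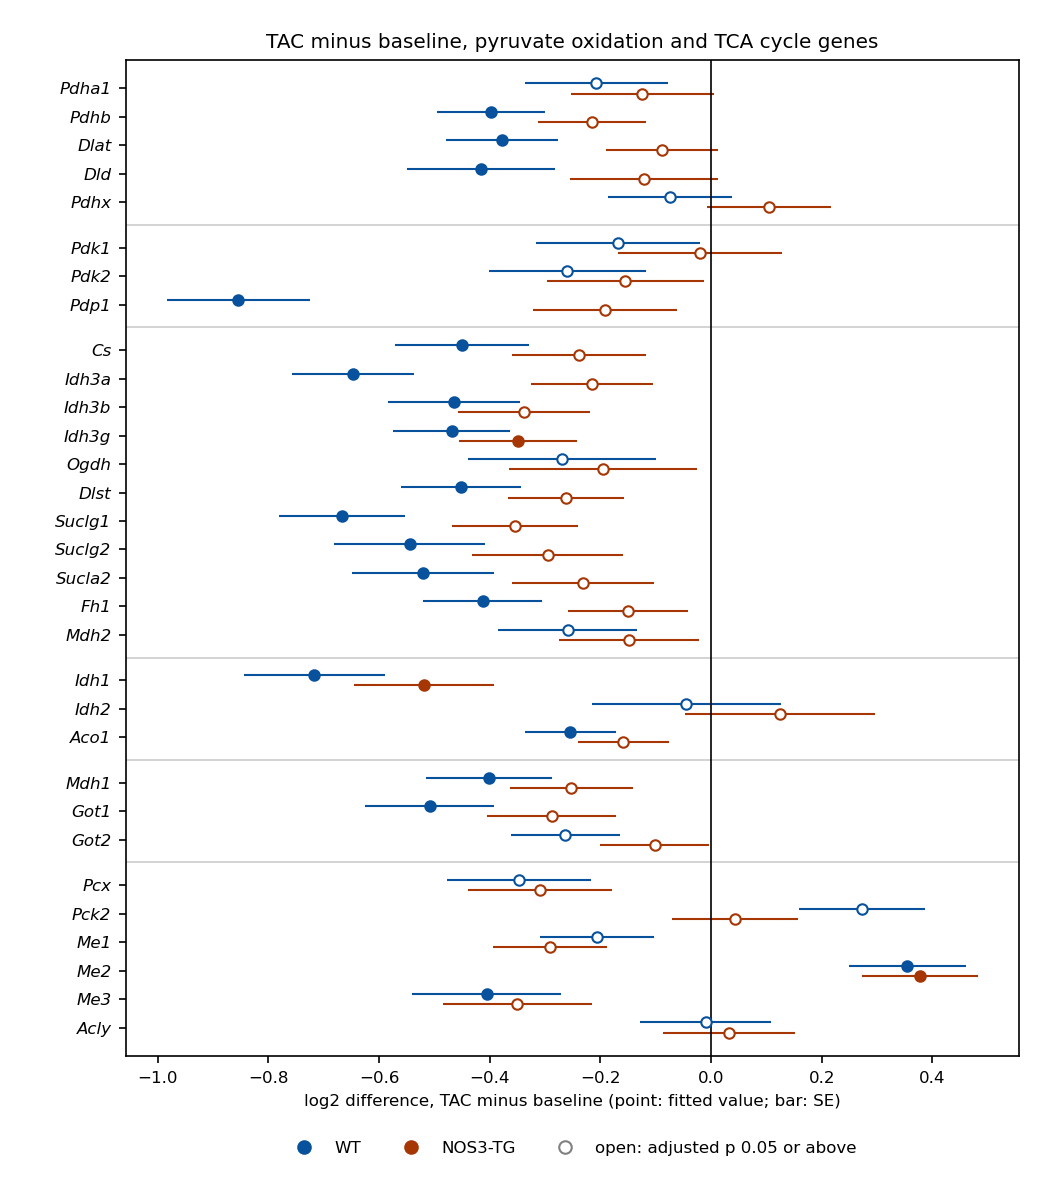
The fitted log2 difference, TAC minus baseline, is plotted on the x axis for each of the 31 genes in WT (blue) and NOS3-TG (brown), grouped by role, with bars for the SE; filled points have an adjusted p under 0.05. In WT, 18 filled points lie below 0 and 1 above it, while in NOS3-TG there are 3 filled points.

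The pyruvate dehydrogenase complex was represented by 5 genes, of which 3 fell in WT after TAC: Pdhb (beta subunit of the decarboxylating component), Dlat (the acetyl-transferring core) and Dld (the dehydrogenase that reoxidises its lipoyl groups). Dld had levels of 5.25, 5.43, 5.29 and 5.42 on WT baseline replicates 1 to 4 and of 5.11, 5.15, 4.82 and 4.65 on WT TAC replicates 1 to 4. All WT TAC arrays were thus below all WT baseline arrays, with replicates 3 and 4 lowest. Its difference was -0.42 ± 0.13 (SE; limma, adjusted p = 0.0347). Pdhb had a difference of -0.40 ± 0.10 (adjusted p = 0.00965) and Dlat of -0.38 ± 0.10 (adjusted p = 0.0146), each without overlap of the arrays. The call of Dld was lost when any of 6 WT arrays was left out, with an adjusted p between 0.0526 (without WT baseline replicate 1) and 0.116 (without WT TAC replicate 4); the others were WT baseline replicates 2, 3 and 4 and WT TAC replicate 3.

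The remaining subunits were not called. Pdha1, the alpha subunit that carries the phosphorylation sites, had a difference of -0.21 ± 0.13 (adjusted p = 0.253). Pdhx, which anchors Dld to the core, had the smallest difference of the complex: levels were 3.92, 3.95, 4.00 and 4.11 at WT baseline and 3.99, 3.90, 3.85 and 3.94 after TAC. Those ranges overlap, and the difference was -0.07 ± 0.11 (adjusted p = 0.669). In NOS3-TG none of the 5 genes was called, and their differences ranged from -0.21 (Pdhb) to 0.10 (Pdhx).

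Other, dimmer probes gave larger differences for part of the complex. A second probe of Dlat gave -0.80 in WT and -0.38 in NOS3-TG, where the brightest gave -0.38 and -0.09. The probes of Dld other than the brightest gave -0.39 and -0.81 in WT and -0.07 and -0.34 in NOS3-TG. A second probe of Pdha1 gave -0.33 in WT (limma, unadjusted p = 0.00744) and -0.17 in NOS3-TG. The unadjusted p of the brightest Pdha1 probe in WT was 0.133. Second probes of Pdhb (-0.45 in WT) and Pdhx (-0.06 in WT) were near the values of the brightest probes. Over all 31 genes, 15 had other probes above background on 16 of 16 arrays, and 15 of these 16 probes had a WT difference of the same sign as the brightest; the exception was Pdk1, at 0.03.

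Of the enzymes that switch the complex, the kinases were not called and the phosphatase Pdp1 showed the largest fall of all 31 genes. Pdp1, the catalytic subunit that removes the inhibitory phosphates, had levels of 2.28, 2.28, 2.34 and 2.01 at WT baseline and of 1.18, 1.60, 1.71 and 1.00 after TAC. Its NOS3-TG levels were 2.21, 1.91, 2.26 and 2.01 at baseline and 1.96, 1.84, 2.01 and 1.81 after TAC. The WT TAC arrays were the lowest of all 4 groups, without overlap with any other group. Group means ± SD (n = 4 each) were 2.23 ± 0.15, 1.37 ± 0.34, 2.10 ± 0.17 and 1.90 ± 0.10 in the order WT baseline, WT TAC, NOS3-TG baseline and NOS3-TG TAC. After TAC, Pdp1 stood at 0.553 times baseline in WT (log2 difference -0.85 ± 0.13, limma adjusted p = 0.000733), and in NOS3-TG the difference was -0.19 ± 0.13 (adjusted p = 0.369).

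A second, dimmer probe of Pdp1 gave differences of -0.79 in WT and -0.04 in NOS3-TG. Its partner Pdpr, the regulatory subunit of the phosphatase, fell in WT by 0.37 on the log2 scale (adjusted p = 0.0375). Pdk1, a kinase that inactivates the complex, had levels of 4.68, 4.44, 4.35 and 4.44 at WT baseline and 4.37, 4.59, 4.08 and 4.19 after TAC, which overlap. The difference of Pdk1 was -0.17 ± 0.15 (adjusted p = 0.430) and that of Pdk2 was -0.26 ± 0.14 (adjusted p = 0.193). Pdk4, the kinase induced by fasting and fatty acids, is not among the 32 genes; its differences were 0.20 ± 0.34 in WT and -0.39 ± 0.34 in NOS3-TG, neither called.

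**Figure D2:**
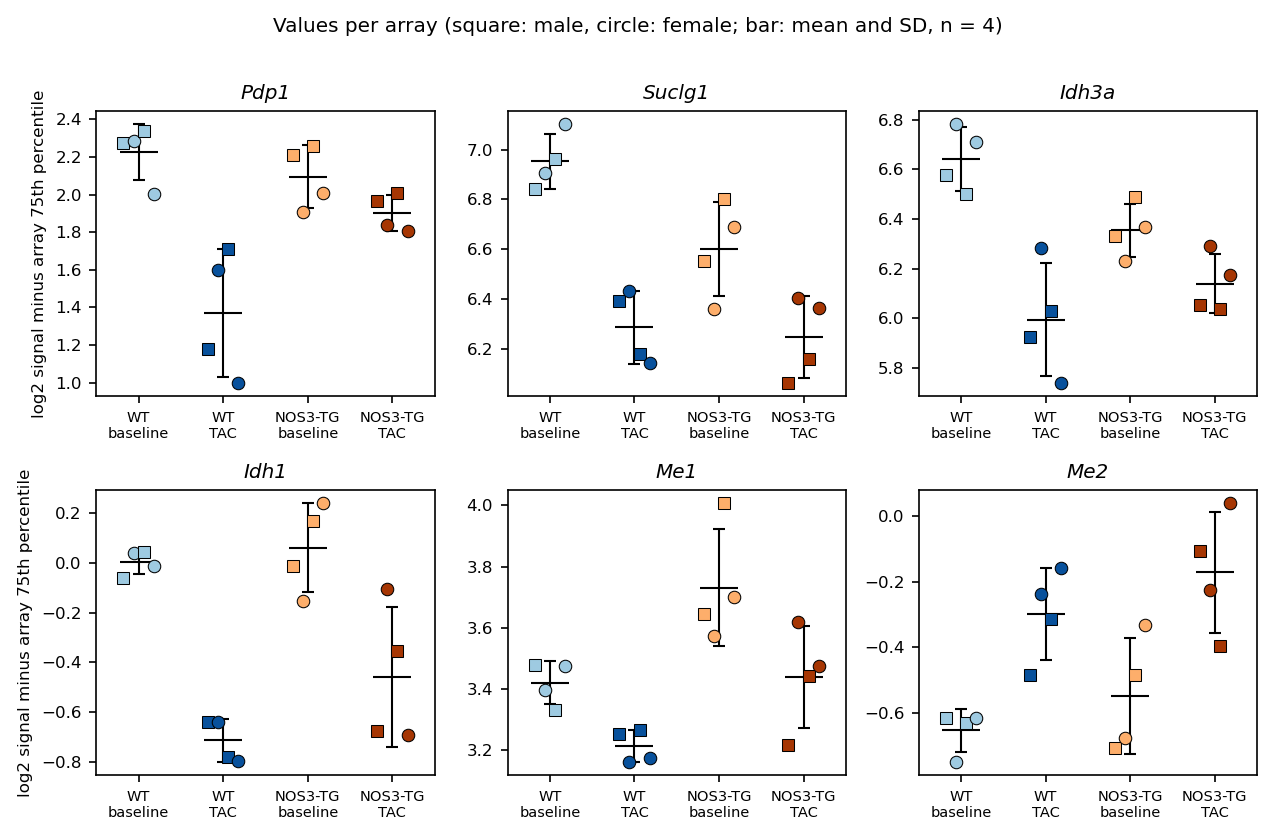
Each panel plots 1 gene, with the level (log2 signal minus the array's 75th percentile) on the y axis and the 4 groups on the x axis; squares are males, circles females, and bars the mean and SD of 4 arrays. For Pdp1 the WT TAC arrays lie between 1.00 and 1.71 and all other arrays at 1.81 or higher; for Idh1 the WT groups are apart and the NOS3-TG TAC arrays range from -0.69 to -0.10.

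Among the 11 genes of the cycle's own enzymes, 9 fell in WT after TAC and 2 were not called, with differences from -0.67 to -0.26. Suclg1, the alpha subunit shared by both succinyl-CoA synthetases, had levels of 6.84, 6.90, 6.96 and 7.10 at WT baseline and of 6.39, 6.43, 6.18 and 6.14 after TAC. NOS3-TG levels of Suclg1 were 6.55, 6.36, 6.80 and 6.69 at baseline and 6.06, 6.40, 6.16 and 6.36 after TAC. The WT baseline arrays of Suclg1 stood above all 12 other arrays. Its fall in WT was to 0.629 times baseline (log2 difference -0.67 ± 0.11, adjusted p = 0.00137), and in NOS3-TG the difference was -0.35 ± 0.11 (adjusted p = 0.0608).

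Idh3a, the catalytic subunit of the NAD-dependent isocitrate dehydrogenase that sets much of the pace of the cycle, had levels of 6.58, 6.78, 6.50 and 6.71 at WT baseline and of 5.92, 6.28, 6.03 and 5.74 after TAC. In NOS3-TG its levels were 6.33, 6.23, 6.49 and 6.37 at baseline and 6.05, 6.29, 6.04 and 6.17 after TAC, so that the 2 conditions overlapped there and not in WT. The difference was -0.65 ± 0.11 in WT (adjusted p = 0.00133) and -0.21 ± 0.11 in NOS3-TG (adjusted p = 0.225). Idh3g, a regulatory subunit, fell in both genotypes. Its levels were 6.93, 6.96, 6.93 and 7.10 at WT baseline, 6.55, 6.63, 6.55 and 6.32 after TAC, 6.74, 6.55, 6.95 and 6.84 at NOS3-TG baseline and 6.31, 6.63, 6.28 and 6.47 after TAC. The groups were apart in WT and overlapped in NOS3-TG, with differences of -0.47 ± 0.11 (adjusted p = 0.00640) and -0.35 ± 0.11 (adjusted p = 0.0496). The NOS3-TG call sits at the threshold: it was lost when any of 13 arrays was left out, of all groups, with an adjusted p of up to 0.136 (without NOS3-TG baseline replicate 3); it held without WT TAC replicate 4, NOS3-TG baseline replicate 2 or NOS3-TG TAC replicate 2. Idh3b, the other regulatory subunit, fell by 0.46 in WT (adjusted p = 0.0119) and had a difference of -0.34 in NOS3-TG (adjusted p = 0.0832).

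The beta subunits of succinyl-CoA synthetase, Suclg2 (GDP-forming) and Sucla2 (ADP-forming), followed Suclg1 in WT. Suclg2 had levels of 3.38, 3.49, 3.51 and 3.49 at WT baseline and 2.84, 3.21, 2.89 and 2.77 after TAC; Sucla2 had levels of 6.98, 7.06, 6.98 and 7.13 and of 6.51, 6.78, 6.47 and 6.31. Neither gene's WT groups overlapped, and WT TAC replicate 2 was the highest TAC array for both. The differences were -0.54 ± 0.14 for Suclg2 (adjusted p = 0.0107) and -0.52 ± 0.13 for Sucla2 (adjusted p = 0.00995). Cs, citrate synthase, fell by 0.45 (adjusted p = 0.0155), Dlst, the core of the alpha-ketoglutarate dehydrogenase complex, by 0.45 (adjusted p = 0.00944), and Fh1, fumarase, by 0.41 (adjusted p = 0.0132). With arrays left out in turn, the call of Cs was lost only without WT TAC replicate 4 (adjusted p = 0.0510). That of Dlst was lost only without WT baseline replicate 4 (0.0557). Cs also lost its call in 2 other settings, with an adjusted p of 0.0781 with the authors' values. Dlst was not called with the authors' values, nor with the mean of its probes (0.851). Dlst was measured on 3 WT baseline arrays, since its spot on replicate 2 was flagged as an outlier spot; with that spot its level there would be 0.24 against a mean of 6.07 on the other 3 arrays.

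Not called were Ogdh, which decarboxylates alpha-ketoglutarate, and Mdh2, the mitochondrial malate dehydrogenase. Mdh2 had the smallest difference of the cycle enzymes, with levels of 8.48, 8.65, 8.74 and 8.75 at WT baseline and 8.42, 8.38, 8.58 and 8.21 after TAC. These ranges overlap, and the difference was -0.26 ± 0.13 (adjusted p = 0.143). Ogdh had a difference of -0.27 ± 0.17 (adjusted p = 0.259), with WT baseline replicate 1 at 4.29 and the other WT baseline arrays between 4.89 and 5.11; it was called lower (-0.46, adjusted p = 0.0286) without that array. In NOS3-TG, 1 of the 11 cycle genes was called, and all 11 differences were below 0, from -0.35 to -0.15.

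Beside the cycle stand the NADP-dependent isocitrate dehydrogenases, which supply NADPH, and the cytosolic aconitase. Idh1, the cytosolic form, had levels of -0.06, 0.04, 0.04 and -0.01 at WT baseline and of -0.64, -0.64, -0.78 and -0.80 after TAC. Its NOS3-TG levels were -0.01, -0.15, 0.17 and 0.24 at baseline and -0.68, -0.10, -0.35 and -0.69 after TAC. Replicate 2 after TAC lay within the NOS3-TG baseline range, while the WT groups were wide apart. Idh1 fell in both genotypes, to 0.608 times baseline in WT (log2 difference -0.72 ± 0.13, adjusted p = 0.00167) and to 0.698 times in NOS3-TG (-0.52 ± 0.13, adjusted p = 0.0207). The NOS3-TG call was lost without NOS3-TG baseline replicate 3 or 4 or NOS3-TG TAC replicate 1 or 4, at an adjusted p between 0.0605 and 0.0666.

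Idh2, the mitochondrial form, gave no such difference: its levels were 5.26, 5.53, 5.52 and 5.86 at WT baseline and 5.63, 5.45, 5.79 and 5.11 after TAC, with overlap. The difference of Idh2 was -0.04 ± 0.17 in WT (adjusted p = 0.875) and 0.12 ± 0.17 in NOS3-TG (adjusted p = 0.677), and whether Idh1 and Idh2 differ was not tested. Aco1, the cytosolic aconitase that doubles as an iron-sensing RNA-binding protein, fell by 0.25 in WT (adjusted p = 0.0349). Leaving out any of 6 WT arrays took Aco1 above the threshold: the adjusted p was 0.0515 without WT TAC replicate 2, 0.0559 without WT TAC replicate 3, 0.107 without WT TAC replicate 4, 0.0873 without WT baseline replicate 2, 0.0632 without WT baseline replicate 3 and 0.0890 without WT baseline replicate 4.

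The malate-aspartate shuttle carries cytosolic reducing equivalents into mitochondria through malate dehydrogenase and aspartate aminotransferase, each with a cytosolic and a mitochondrial form. Got1, the cytosolic aminotransferase, had levels of 6.85, 7.08, 6.95 and 7.23 at WT baseline and of 6.58, 6.68, 6.45 and 6.37 after TAC. Got2, the mitochondrial one, had levels of 6.07, 6.17, 6.19 and 6.42 and of 5.97, 5.98, 5.95 and 5.89. In both genes the WT groups were apart, by a narrower gap for Got2. Got1 fell by 0.51 (adjusted p = 0.00676), and the difference of Got2 was -0.26 ± 0.10 (adjusted p = 0.0618). In NOS3-TG their differences were -0.29 ± 0.12 and -0.10 ± 0.10, not called.

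Mdh1, the cytosolic malate dehydrogenase, was called lower in WT (-0.40 ± 0.11, adjusted p = 0.0220) on 3 baseline and 4 TAC arrays, since its spot on WT baseline replicate 2 was also flagged as an outlier. Its call was lost without WT TAC replicate 4 (adjusted p = 0.0654), WT baseline replicate 3 (0.0668) or WT baseline replicate 4 (0.108). A second bright probe of Mdh1 gave -0.07 ± 0.13 in WT and 0.14 ± 0.13 in NOS3-TG, so the probes of Mdh1 do not show the same difference.

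Of the 6 genes for anaplerotic, malic and citrate-using enzymes, 1 fell and 1 rose in WT. Me2, the mitochondrial NAD-dependent malic enzyme that turns malate into pyruvate, had levels of -0.62, -0.75, -0.63 and -0.61 at WT baseline and of -0.48, -0.24, -0.31 and -0.16 after TAC. In NOS3-TG its levels were -0.71, -0.68, -0.48 and -0.33 at baseline and -0.11, -0.22, -0.40 and 0.04 after TAC. The WT groups were apart, and the NOS3-TG groups overlapped through baseline replicate 4 and TAC replicate 3. Me2 was the single gene of the 31 to rise in both genotypes, to 1.28 times baseline in WT (log2 difference 0.35 ± 0.11, adjusted p = 0.0241) and 1.30 times in NOS3-TG (0.38 ± 0.11, adjusted p = 0.0352). A second probe of Me2 gave 0.41 and 0.32. The WT call was lost without WT baseline replicate 2 or 4 or WT TAC replicate 3 or 4 (adjusted p between 0.0521 and 0.0766), and the NOS3-TG call without NOS3-TG baseline replicate 1 or 2 or NOS3-TG TAC replicate 1 or 4 (between 0.0822 and 0.107).

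Me3, the mitochondrial NADP-dependent malic enzyme, had levels of 2.21, 2.51, 2.56 and 2.71 at WT baseline and 2.25, 1.97, 2.32 and 1.84 after TAC. The groups overlapped through WT baseline replicate 1, and Me3 was the single called gene of the 31 in WT with such an overlap. Its difference was -0.41 ± 0.13 (adjusted p = 0.0388), and the call was lost without WT baseline replicate 2, 3 or 4 or WT TAC replicate 1, 2 or 4, with an adjusted p between 0.0536 and 0.123. Pcx, the pyruvate carboxylase that refills oxaloacetate, had WT groups that were apart and a difference of -0.35 ± 0.13 (adjusted p = 0.0617). Pck2, the mitochondrial phosphoenolpyruvate carboxykinase, had a difference of 0.27 ± 0.11 (adjusted p = 0.0889). Acly, which splits cytosolic citrate for lipid synthesis, had the smallest difference of the 31: levels were -0.74, -0.58, -0.64 and -0.20 at WT baseline and -0.68, -0.53, -0.59 and -0.41 after TAC. Its TAC range lay within the baseline range, and the difference was -0.01 ± 0.12 (adjusted p = 0.962).

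By place in the cell, 14 of the 25 mitochondrial and 4 of the 6 cytosolic enzymes fell in WT, with medians of -0.40 and -0.33. Of the 31 genes, 20 lay in the brightest decile of all genes, whose 1567 genes had a median difference of -0.15 in WT and -0.04 in NOS3-TG; the 20 genes had medians of -0.41 and -0.20. In that decile 27.9% of all genes were called lower in WT, against 13 of these 20. This split by brightness was chosen after the data were seen.

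**Figure D3:**
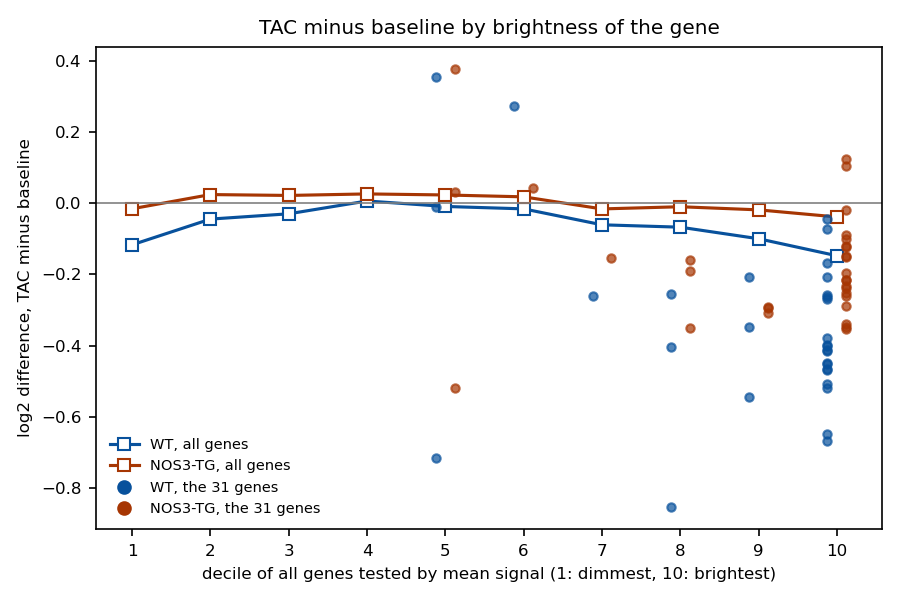
The y axis is the log2 difference, TAC minus baseline, and the x axis the decile of all genes tested by mean signal; lines with squares are medians over all genes of a decile and dots are the 31 genes, in WT (blue) and NOS3-TG (brown). The blue line reaches -0.15 in the brightest decile, where the 20 blue dots have a median of -0.41.

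The genes shifted together from array to array, also within a group. For each array, the median over the 31 genes of the level minus the gene's mean over all arrays was 0.15 to 0.39 at WT baseline, -0.28 to -0.03 in WT TAC, -0.15 to 0.18 at NOS3-TG baseline and -0.33 to 0.07 in NOS3-TG TAC. The WT baseline arrays overlapped with no WT TAC array, and both NOS3-TG groups overlapped with each other. NOS3-TG baseline replicate 2, one of the arrays with an extreme share above background, was the lowest array of its group for 28 of 31 genes, and NOS3-TG TAC replicate 2 was the highest of its group for 25. In WT, baseline replicate 1 was lowest for 22 of 29 genes measured on all 4 arrays, and TAC replicate 4 was lowest for 21 of 31. The signal at the 75th percentile lay between 1053 and 1174 at WT baseline and between 1097 and 1427 in WT TAC. In NOS3-TG it lay between 1122 and 1337 at baseline and between 1127 and 1491 after TAC. The array with the lowest median of the 31 genes (-0.33, NOS3-TG TAC replicate 1) had the highest 75th percentile. That with the highest median (0.39, WT baseline replicate 4) had the lowest. The part of the scaling in these shared shifts was not tested.

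**Figure D4:**
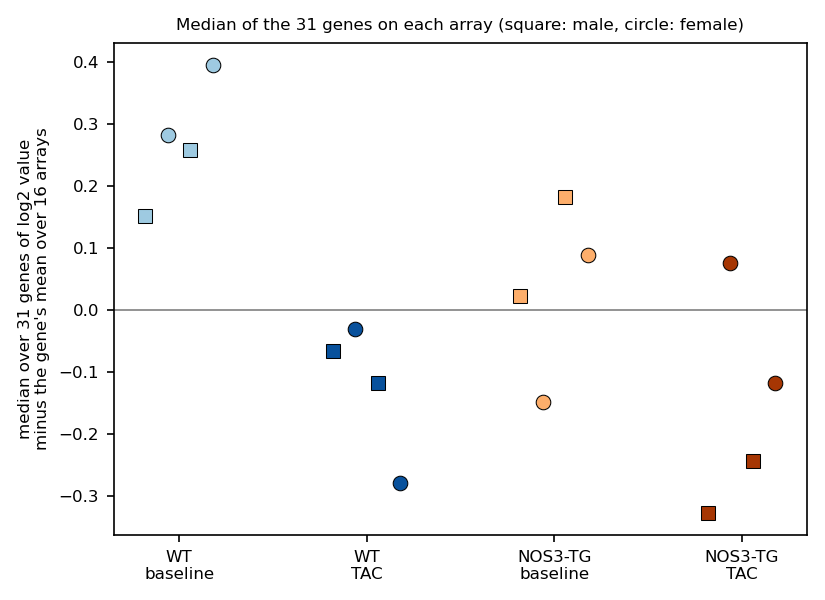
Each point is 1 array, with the median over the 31 genes of the level minus the gene's mean over 16 arrays on the y axis and the group on the x axis; squares are males and circles females. The 4 WT baseline arrays, at 0.15 to 0.39, lie above the 4 WT TAC arrays, while the NOS3-TG groups overlap.

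Each slide of 4 arrays held 1 condition, so TAC cannot be told apart from slide, nor from the surgery itself. Of the 2 slides with TAC arrays, 1 was scanned on a second day; with scan day as a block, 9 genes fell in WT and none was called in NOS3-TG, while the WT median was -0.34. Over all genes, scan day as a block took the calls from 4459 to 2697 in WT and from 1855 to 757 in NOS3-TG. The slide of the second day held only TAC arrays, so with this block the TAC level rests on the other TAC slide. An effect of scan day thus cannot be told apart from the loss of arrays. Signals of other cell types moved in the same comparison. Of 12 ventricular cardiomyocyte markers, 3 fell in WT (median -0.26), and the summed signal of the 12 ran from 2815 to 3486 times the array's 75th percentile at WT baseline and from 2421 to 3117 in WT TAC. In NOS3-TG none of the 12 was called (median -0.10), with sums of 2598 to 3412 at baseline and 2392 to 2962 after TAC.

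Of the other markers, 5 of 7 for macrophages, 4 of 5 for endothelium and 3 of 7 for fibroblasts rose in WT after TAC, with sums of 59.4 to 74.3 against 80.3 to 103, of 17.1 to 19.6 against 23.8 to 26.7, and of 145 to 229 against 177 to 270. In NOS3-TG, 1 marker of each of these 3 lists rose; the macrophage sums were 83.5 to 99.5 at baseline and 96.6 to 112 after TAC, the endothelial sums 13.8 to 19.4 and 20.6 to 21.3, and the fibroblast sums 149 to 214 and 168 to 249. Of 4 smooth muscle markers, 1 fell and 1 rose in each genotype, with sums of 64.8 to 102 and 84.8 to 131 in WT and of 53.6 to 69.0 and 106 to 134 in NOS3-TG, where they did not overlap. Of 5 adipocyte markers, 1 fell in WT (sums of 146 to 223 and 169 to 210) and none was called in NOS3-TG (136 to 205 and 130 to 175). Adipocyte medians were -0.92 in WT and -0.58 in NOS3-TG. None of the 3 atrial, 2 lymphocyte and 2 erythroid markers was called in either genotype. Over all genes, 17.6% were called lower and 10.9% higher in WT, and 5.36% and 6.48% in NOS3-TG. The part of these markers in the differences of the cycle genes was not tested. In a bulk sample, fewer cells of a type and less RNA per cell cannot be told apart.

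At baseline, none of the 31 genes was called between the genotypes, where 0.0830% of all genes were called lower and 0.332% higher in NOS3-TG; at an unadjusted p under 0.05 the all-gene count was 1926, and array weights gave 1 gene lower (Suclg1) and 1 higher (Me1). The median difference, NOS3-TG minus WT, was -0.23 against -0.06 over all genes, and 27 of 31 differences were below 0. It was nearer 0 with quantile normalization (-0.11 against -0.04, 24 of 31 below 0). The authors' values gave -0.13 against -0.03, with 23 of 31 below 0. Normexp background correction gave -0.20 against -0.07, with 27 of 31 below 0. In the same comparison 2 of 7 macrophage markers were called higher in NOS3-TG (median 0.63), with sums of 83.5 to 99.5 against 59.4 to 74.3 in WT; the 4 smooth muscle markers had a median of -0.66 and the 12 ventricular cardiomyocyte markers of -0.16, with none called. Their part in the differences of the cycle genes was not tested. On 9 genes every NOS3-TG baseline array lay below every WT baseline array, and on 1 every array lay above, against 6.06% and 3.89% of all genes. Those 9 were Dlat, Dld, Idh3a, Idh3b, Suclg1, Sucla2, Fh1, Got1 and Got2. The largest differences were -0.35 ± 0.11 for Suclg1 (adjusted p = 0.229), -0.35 ± 0.17 for Idh2 (adjusted p = 0.424) and -0.34 ± 0.12 for Got1 (adjusted p = 0.254).

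Within the slides, the median difference was -0.27 on slide 1 (30 of 31 below 0) and -0.18 on slide 4 (26 of 31 below 0). Without NOS3-TG baseline replicate 2 the median over both slides was -0.12. Me1, the cytosolic malic enzyme that makes NADPH, went the other way from most of the list: its levels were 3.48, 3.40, 3.33 and 3.48 at WT baseline and 3.64, 3.57, 4.01 and 3.70 at NOS3-TG baseline. All NOS3-TG baseline arrays were above all WT baseline arrays, and the difference was 0.31 ± 0.10 (adjusted p = 0.243), with 0.17 on slide 1 and 0.45 on slide 4. A second probe of Me1 gave 0.28. This comparison uses the same WT baseline arrays as the TAC comparison in WT, so high WT baseline arrays enter both.

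**Figure D5:**
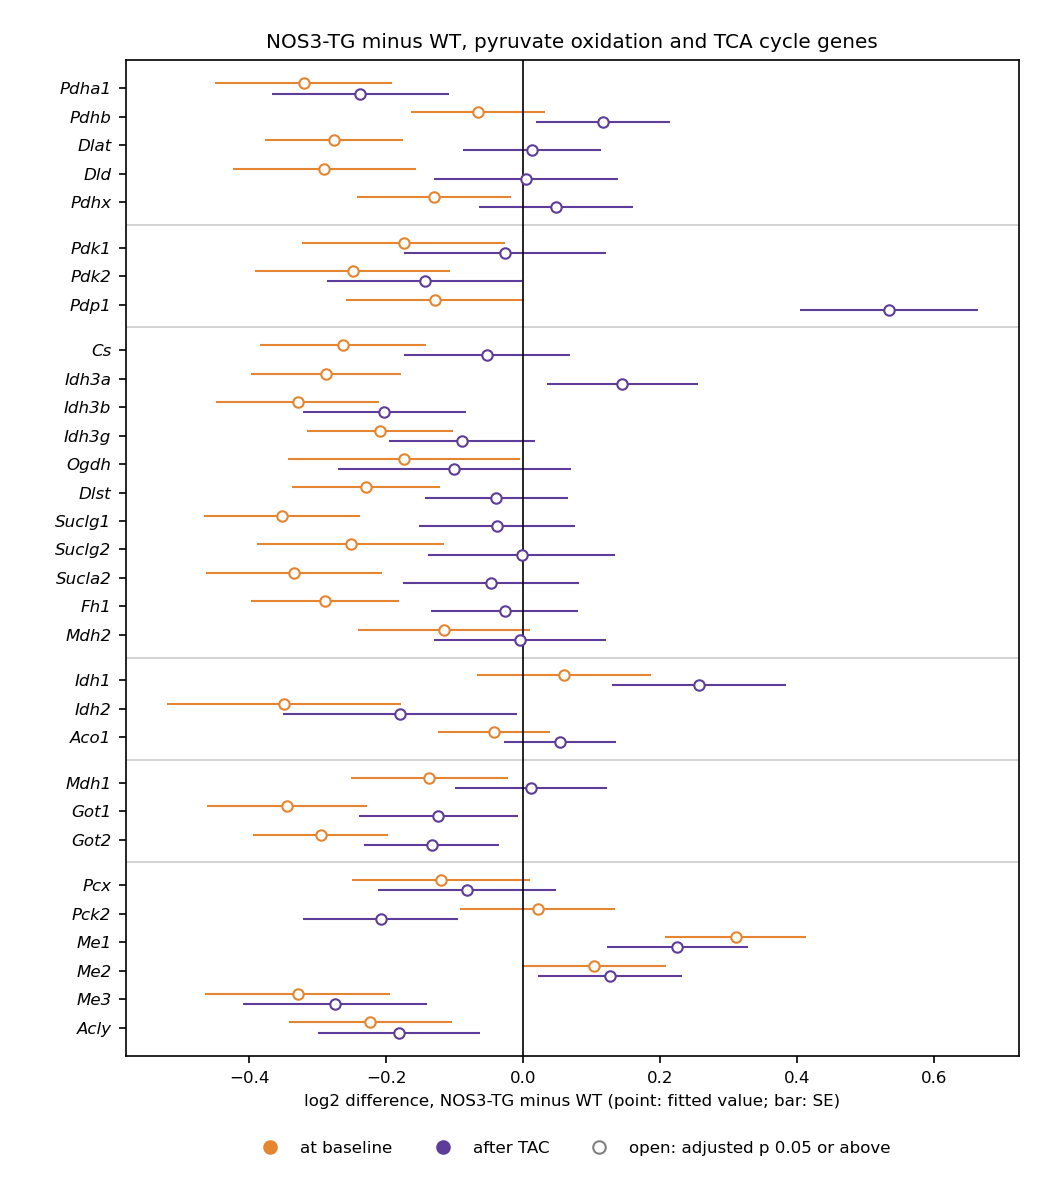
The fitted log2 difference, NOS3-TG minus WT, is on the x axis for each of the 31 genes at baseline (orange) and after TAC (purple), with bars for the SE; open points have an adjusted p of 0.05 or above, as all do. At baseline 27 of 31 points lie below 0, and after TAC Pdp1 stands farthest to the right at 0.53.

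After TAC the genotypes also gave no call among the 31 genes, where 0.0255% of all genes were called lower and 0.255% higher; at an unadjusted p under 0.05 the all-gene count was 1922. The median difference was -0.04 against 0.0076 over all genes, and 20 of 31 differences were below 0. With normexp background correction the sign changed (0.04 against -0.03, 13 of 31 below 0). Quantile normalization gave -0.02 with 21 of 31 below 0, and the authors' values gave -0.05 with 23 of 31. Pdp1 was the single gene of the 31 on which all NOS3-TG TAC arrays lay above all WT TAC arrays, against 3.61% of all genes, and on none did all lie below, against 1.95%. The difference of Pdp1 was 0.53 ± 0.13 (adjusted p = 0.107), with 0.51 on slide 2 and 0.55 on slide 3, and the second probe gave 0.48. With each array left out in turn, the difference of Pdp1 ran from 0.43 to 0.65. The limma adjusted p ran from 0.0459 to 0.272, the highest without WT TAC replicate 1. Pdp1 was called only without WT TAC replicate 2, with a difference of 0.65 at an adjusted p of 0.0459.

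The test of whether TAC acted differently in the 2 genotypes (the interaction) called none of the 31 genes and none of the 15670; at an unadjusted p under 0.05 there were 1167 genes, and each alternative setting that was run called 0 of the 31. The interaction, the NOS3-TG difference minus the WT difference, had a median of 0.16 over the 31 genes and of 0.07 over all genes, and was above 0 for 29 of 31. With quantile normalization the median of the 31 genes was 0.07 and 25 of 31 were above 0; the TAC medians then were -0.22 in WT and -0.16 in NOS3-TG. With the authors' deposited values the interaction median was 0.06, and 23 of 31 were above 0. Pdp1 had the largest interaction, 0.66 ± 0.18 (95% interval 0.27 to 1.06, unadjusted p = 0.00314, adjusted p = 0.652). Idh3a followed with 0.43 ± 0.16 (0.10 to 0.77, adjusted p = 0.652). For the other genes the interval of the interaction included 0, and it was as wide as -0.35 to 0.69 for Idh2. A gene that was called in WT and not in NOS3-TG is therefore not shown to differ between the genotypes.

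Sex gave no call among the 31 genes either, with limma over all arrays: 0.721% of all genes were called lower and 0.600% higher in females, and the median difference of the 31 was 0.05 against 0.01 over all genes. The sex-by-TAC test called 0 of 31 and 0 of all genes, with 1776 of all genes at an unadjusted p under 0.05.

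Genes of the same pathway outside the list were counted too; these lists were drawn up with earlier results of these data known. Of 18 further pathway genes, 11 fell in WT and 2 in NOS3-TG, where 17.6% and 5.36% of all genes were called lower. Succinate dehydrogenase, which the list of 32 does not hold, fell in all 4 subunits in WT: Sdhc by 0.79 (adjusted p = 0.000237), Sdha by 0.61, Sdhb by 0.51 and Sdhd by 0.45. In NOS3-TG, Sdha fell by 0.46 (adjusted p = 0.0373) and Sdhc by 0.44 (adjusted p = 0.0126). Mpc2, a subunit of the mitochondrial pyruvate carrier, fell by 0.48 in WT. Pck1, the cytosolic phosphoenolpyruvate carboxykinase, was well above background on all WT baseline arrays and on no WT TAC array, so its fall is a bound: WT baseline was at least 3.76-fold higher, with each WT TAC array set to the lowest signal that passed as well above background there, or to Pck1's own where that was higher (measured means -2.23 at WT baseline and -4.96 in WT TAC, adjusted p = 0.00317).

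Around the pathway, 3 of 6 lactate and monocarboxylate genes fell and 1 rose in WT, and 1 fell in NOS3-TG. For this and the next 2 lists, the shares of all genes were 17.6% lower and 10.9% higher in WT. In NOS3-TG they were 5.36% lower and 6.48% higher. With so few genes in a list, a single call is near these shares. Slc16a7, a monocarboxylate transporter of high affinity, fell to 0.466 times baseline in WT (adjusted p = 0.00105) and by 0.76 on the log2 scale in NOS3-TG (adjusted p = 0.0179), and Slc16a3, the lactate exporter of glycolytic cells, rose by 0.86 in WT (adjusted p = 0.0247). Ldhd, the D-lactate dehydrogenase, fell by 0.44 in WT. Of 6 carriers of the inner mitochondrial membrane, 4 fell in WT and 1 in NOS3-TG, led by the glutamate carrier Slc25a22 (-1.03 and -0.74) and followed in WT by the aspartate-glutamate carrier Slc25a12 (-0.51) and the malate carrier Slc25a11 (-0.39). Of 15 genes that feed the cycle from amino acids, propionate and ketone bodies, 9 fell in WT and 3 in NOS3-TG. The largest difference of that list was that of Bdh1, a ketone body enzyme, at 3.24 in WT, and it was not called (adjusted p = 0.244): WT baseline replicate 2 stood at -6.26 and the other WT baseline arrays between 5.59 and 6.27. The 3 that fell in NOS3-TG were the alanine aminotransferases Gpt (-1.65 in WT and -1.20 in NOS3-TG) and Gpt2 (-1.09 and -0.68), and Bckdhb of the branched-chain ketoacid dehydrogenase (-1.07 and -0.64). Differences of Gpt were called at adjusted p = 8.7e-05 in WT and 0.00108 in NOS3-TG.

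Of 10 regulators of mitochondrial genes, 5 fell in WT and 1 in NOS3-TG, where 17.6% and 5.36% of all genes were called lower. Ppargc1a, the coactivator of mitochondrial biogenesis, fell by 0.76 in WT (adjusted p = 0.0180), Ppargc1b by 0.62, Ppara by 0.58, Esrra (ERR alpha, a nuclear receptor that binds promoters of energy genes) by 0.45 and Tfam by 0.26. Ppara also fell by 0.58 in NOS3-TG (adjusted p = 0.0430), and Ppargc1a had a difference of -0.61 there (adjusted p = 0.0799).

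Promoter sequence of 29 of the 32 genes was at hand from RefSeq (build GRCm38.p6), and the 250 bases before each start site were searched on both strands. There was no promoter sequence for Pdp1, Idh3a and Me2, so the search does not cover them. The letters AAGGTCA, the core of the ERR half-site, were found in 1 of 29 genes (Got1), a share of 3.45%, against 4.70% of all gene symbols. The longer form TCAAGGTCA, which contains that core, was found in 0 of 29 against 0.422% of all. The ETS site of GABP, CCGGAAGT, was found in 0 of 29 against 3.23%, and the NRF1 site CGCATGCG in 1 (Ogdh, before 2 of its start sites) against 1.75%. The bases around the match are printed for those 2 genes, with the match in capitals. The bases directly before the start are printed for Suclg1, which had the largest WT fall among the cycle enzymes of the list. They lie at chr19:43524756-43524855 on the minus strand (Got1, 100 bases that begin 250 before its start), chr11:6292458-6292557 on the plus strand (Ogdh, the last 100 before its start) and chr6:73248405-73248504 on the plus strand (Suclg1, the last 100).
Got1: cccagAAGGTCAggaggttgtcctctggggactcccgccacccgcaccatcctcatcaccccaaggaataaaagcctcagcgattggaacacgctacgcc
Ogdh: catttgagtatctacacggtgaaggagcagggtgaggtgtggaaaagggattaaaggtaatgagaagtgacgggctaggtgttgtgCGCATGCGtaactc
Suclg1: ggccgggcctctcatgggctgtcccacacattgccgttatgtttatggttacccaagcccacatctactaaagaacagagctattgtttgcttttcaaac
A match of letters is a description of the sequence, and no match says only that these letters are not in this window.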

How the data were processed

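The authors deposited, per the file headers, processed spot intensity from Agilent Feature Extraction 9.5.1.1, already corrected for background and spatial trend, with quality flags per spot. A deposited table of log2 values from the authors, of unstated normalization, served as an alternative.

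After 1639 control spots and all flagged outlier spots were dropped, spots of a probe were averaged. Probes well above background on at least 4 of 16 arrays entered the fit, as log2 signal minus the array's 75th percentile. Limma 3.58.1 (R 4.3.3, with tables read by data.table, release 1.17.8) was run with terms for 4 groups and for sex. The fit was checked on simulated data with noise independent between genes and arrays. Those data held no shared shifts of arrays and no slide effect, so the check does not cover them. The sex-by-TAC test came from its own fit. Tests are two-sided. Replicate numbers follow accession order and pair no samples. Matplotlib 3.10.9 (Python 3.11.15) drew the figures.

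The genes, lists and rules were chosen with earlier results of these data known. Values per array are given for the 8 largest WT differences, called rises, and the extremes of each role; those of Me1, and genes beyond the 3 largest of another list, were added after values were seen. Alternatives covered scaling (quantile), background (normexp, offset 50), the authors' values, the filter, probe choice, array weights, variance trend, the sex term, the groups fitted, slide, scan day, the 3 arrays with extreme shares above background, and each array in turn.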

Additional observations from a re-analysis of the deposited data

Results flagged for a closer look

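In 3 of 122 groups of 4 arrays checked over the 31 genes, 1 array lay far from the others by Dixon's criterion for the gap over the group's range; chance gives about 1 in 20. Cs had a level of 7.56 on WT TAC replicate 4, with the other WT TAC arrays between 7.93 and 7.96. Suclg2 had a level of 3.38 on WT baseline replicate 1, with the other 3 between 3.49 and 3.51. Me2 had a level of -0.75 on WT baseline replicate 2, with the others between -0.63 and -0.61.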

How the results depend on the processing

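Of the 19 genes called in WT after TAC, 12 kept their call with each array left out and 8 in every setting tried: Pdhb, Pdp1, Idh3a, Idh3g, Suclg1, Sucla2, Idh1 and Got1. With arrays left out in turn, 13 (without WT TAC replicate 4 or WT baseline replicate 4) to 20 genes (without NOS3-TG baseline replicate 2) fell and 0 to 2 rose in WT, with medians of -0.43 to -0.33. In NOS3-TG 0 to 5 fell and 0 to 1 rose, with medians of -0.27 to -0.15: none fell without NOS3-TG TAC replicate 1 or 4 or NOS3-TG baseline replicate 3 or 4, and 5 fell without replicate 2 of either NOS3-TG group. The genotype medians ranged from -0.30 to -0.12 at baseline and from -0.10 to 0.03 after TAC, where 0 to 1 genes were higher, and the interaction median from 0.08 to 0.23.

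The number of falls in WT moved to 9 with scan day as a block. The WT median was -0.22 with quantile normalization and -0.23 with the authors' values. Rises in WT numbered 2 with array weights and 0 with no filter, normexp or scan day. Falls in NOS3-TG numbered 7 with array weights, 7 with the authors' values, 5 with quantile normalization, 1 with normexp, 1 with slide as a random block, and 0 with no filter, the compared groups alone, scan day or without the 3 arrays of extreme share above background; rises numbered 0 in these last 4 settings and with array weights. At baseline, array weights gave 1 gene lower and 1 higher in NOS3-TG.

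With the authors' values Dlst had a WT difference of 1.07 and Mdh1 of 0.17. WT baseline replicate 2 stood at 10.5 and 15.6 in those values against means of 16.3 and 17.4 on the other 3 arrays. With the mean of all its probes Mdh1 had 0.018. None of these was called, nor was Dlst with the mean of its probes (limma adjusted p = 0.851). In that setting the flagged brightest spots of both genes are missing on WT baseline replicate 2. The mean on that array thus holds only dimmer probes. The value 0.018 is not the average of the differences of the Mdh1 probes, which were -0.40, -0.07 and -0.69. Over all genes, 4459 calls in WT became 2958 with normexp, and 1855 in NOS3-TG became 401 without the 3 extreme arrays and 2846 with array weights. At baseline 65 genotype calls became 24 with normexp and 458 with array weights, and after TAC 44 became 4 with the compared groups alone and 91 with an intensity trend; of the 44, 4 were lower, against 15 lower and 57 higher with the authors' values. The cause of these shifts in the all-gene calls was not tested. The labels give no replicate numbers. With slide as a fixed block, which sets the genotypes against each other within slides, no gene of the 31 was called, and all-gene calls numbered 109 at baseline and 74 after TAC. Few arrays and their shared shifts limit the precision; all 31 genes lay well above background.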
